A study of Mus musculus with 4 samples.

Results

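The keratin genes examined here are the 10 members Krt5, Krt7, Krt8, Krt14, Krt17, Krt18, Krt19, Krt20, Krt23 and Krt80, taken by symbol from gene count tables of 25793 genes each. All 10 were listed in every table, 8 of them passed the filter on low counts, and another 41 keratin genes of the same tables served as the rest of the family. The data are RNA-seq gene counts of 4 mouse liver libraries. Tumours 1 and 2 were labelled liver tumours of beta-2SP+/- ; SMAD3+/- mice, that is, mice with a single intact copy of the gene for the SMAD3 adaptor beta-2 spectrin and a single intact copy of Smad3. Another library was labelled normal liver of a mouse with that same genotype, so by the labels both tumours and this library share the heterozygous alleles. The last was labelled normal liver of a wild type mouse. No strain, age or treatment is given, and nothing says whether the tumours came from separate animals. The submitters' short descriptions differ from the genotype and tissue labels. They read Elf-Tcell and Smad-Tcell for the tumours, and Smad-Hepatocytes and mHepatocyte for the normal libraries. What Tcell stands for is not said, and the groups used here follow the labels.

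Keratins are the intermediate filament proteins of epithelial cells. They assemble only as pairs of a type I (acidic) and a type II (basic) chain, and the filaments are anchored at desmosomes between cells and at hemidesmosomes on the basement membrane. The pair of keratin 8 and keratin 18 is that of simple epithelia and is the one pair that adult hepatocytes make, whereas bile duct cells add keratins 7 and 19. Keratins 5, 14 and 17 belong to stratified epithelia and their appendages.

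Promoter sequence just upstream of the annotated start is shown for the 4 members with a RefSeq promoter that reached at least 30 CPM (counts scaled to library size by TMM, the trimmed mean of M values) in both tumours, since these are the members that stood high together. RefSeq (GRCm38.p6, another build than the mm9 named for the counts) held promoters for 7 members and not for Krt17, Krt19 and Krt80. Each line gives 150 bases 5′ to 3′ on the gene's strand, ending at the base before the start, and capitals mark a GC box (GGGCGG or its complement) or a TATA box (TATAAA).
Krt7, chr15:101412253-101412402, plus strand: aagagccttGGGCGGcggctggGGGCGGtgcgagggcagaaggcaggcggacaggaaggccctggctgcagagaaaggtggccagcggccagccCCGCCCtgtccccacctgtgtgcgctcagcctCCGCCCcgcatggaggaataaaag
Krt8, chr15:102004343-102004492, minus strand: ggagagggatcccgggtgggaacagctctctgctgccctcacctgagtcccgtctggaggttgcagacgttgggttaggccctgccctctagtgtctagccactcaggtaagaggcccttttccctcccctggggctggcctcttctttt
Krt18, chr15:102028066-102028215, plus strand: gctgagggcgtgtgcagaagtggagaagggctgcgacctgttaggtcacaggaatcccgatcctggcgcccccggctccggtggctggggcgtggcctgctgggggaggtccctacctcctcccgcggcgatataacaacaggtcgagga
Krt20, chr11:99438154-99438303, minus strand: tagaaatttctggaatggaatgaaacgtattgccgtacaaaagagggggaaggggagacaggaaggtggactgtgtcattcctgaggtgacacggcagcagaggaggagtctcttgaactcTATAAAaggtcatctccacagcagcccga
Over the 250 bases before the start and on both strands, GC boxes were found in 1 of the 7 promoters, that of Krt7, which held 4, and in 32.7% of all 32851 promoters. TATAAA was found in 1 of the 7, that of Krt20, against 12.4% of all. Neither the AP-1 site TGANTCA (6.75% of all promoters) nor the ETS core CCGGAAG (6.91%) was found in any of the 7. None of these motifs was found in more than 1 of the 7, and a match or its lack in this window says nothing of the factors themselves.

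Some facts of the libraries touch every value below. Gene counts summed to 11049931 and 13295216 in tumours 1 and 2, and to 15950426 and 18448621 in the double heterozygous and wild type normal libraries. Among genes with a mean count of 1 to 5, the normal tables had equal counts in 56.8%, against 22.0% expected of separate libraries (13.1% and 21.5% for the tumours), so the normal tables were averaged and counted as 1 library. Hepatocyte markers were lower in the tumours. The summed level of 10 such genes was 142 and 139 CPM in tumours 1 and 2. In the normal libraries labelled double heterozygous and wild type it was 168586 and 154876 CPM. Of the 10, 9 fell (edgeR, as below), where 5.19% of all genes tested were called lower. The exception, the transcription factor gene Hnf4a, supplied most of the tumour sums, at 132 and 90.3 CPM, against 1183 and 1034 CPM in the normal libraries (adjusted p = 0.0621). Among the 9, Ass1 had 981 and 23746 counts in the double heterozygous and wild type libraries. Its call was lost with scaling by library totals only and with the double heterozygous table alone. Of the 31-base stretches (31-mers) of Ass1 43.1% occur in other genes, and of those of Serpina1c 85.8%, so both counts are uncertain. T cell markers were read because the descriptions hold the word Tcell, whose meaning they do not give. These markers summed to 2.51 and 0.998 CPM in the tumours and 14.9 and 15.5 CPM in the normal libraries. Cd3d, Cd3e, Cd3g, Cd4 and Cd8a were at 0 in both tumours. In the double heterozygous and wild type libraries Cd3e had 23 and 35 counts and Cd4 13 and 12. Cd3d (1 and 1), Cd3g (2 and 2) and Cd8a (1 and 1) were near 0 there too. Lck had 9 and 11 counts in the tumours against 5 and 8, Zap70 0 and 9 against 30 and 37, and Ptprc 35 and 2 against 65 and 77. Of the 10 T cell markers 0 were called by edgeR or DESeq2 (0 higher and 1 lower at an unadjusted p under 0.05). In such bulk libraries, fewer cells of a type and less RNA per cell cannot be told apart.

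Keratin transcripts were more abundant in the tumours. The 10 members together reached 2075 and 2283 CPM in tumours 1 and 2, against 187 and 208 CPM in the normal libraries labelled double heterozygous and wild type. Both tumours stood above both normal libraries for 7 of the 8 members tested, Krt7, Krt8, Krt18, Krt19, Krt20, Krt23 and Krt80, where 40.6% of all 14468 genes tested did so. For 0 of the members tested did both tumours stand below, where 37.9% of all genes tested did. These tallies describe the members and are no evidence on them as a set. Krt7, Krt14, Krt23 and Krt80, with 13 counts or fewer in each normal library, passed the filter on low counts through the tumours alone. Those genes could hardly have stood below, and the members were chosen with earlier results of these data known. Of the 10, 2 rose by the test, the bile duct keratins Krt7 and Krt19, and 0 fell. The test was edgeR's quasi-likelihood test of the 2 tumours against the averaged normal library, with a Benjamini-Hochberg adjusted p under 0.05 over all genes tested. It called 2.23% of all genes higher and 5.19% lower. At an unadjusted p under 0.05, 6 members were higher and 0 lower, where 12.5% of all genes were higher and 15.5% lower. DESeq2 called 7 members higher and 0 lower, where it called 12.2% of all genes higher and 12.8% lower. The list counts above and below stand against these shares. With the normal tables as separate libraries edgeR called 6 members and 22.6% of all genes higher, and with no filter on low counts 3 members and 4.88%. The fit has 1 residual degree of freedom, from the tumours, and a median of 3.32 prior degrees of freedom borrowed from other genes. The p-values therefore rest on the spread between the 2 tumours and on that of other genes. They hold no measure of the spread of normal liver. The median gene was at 0.19 on the log2 scale of the fit, and every fold change below stands beside that value.

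**Figure D1:**
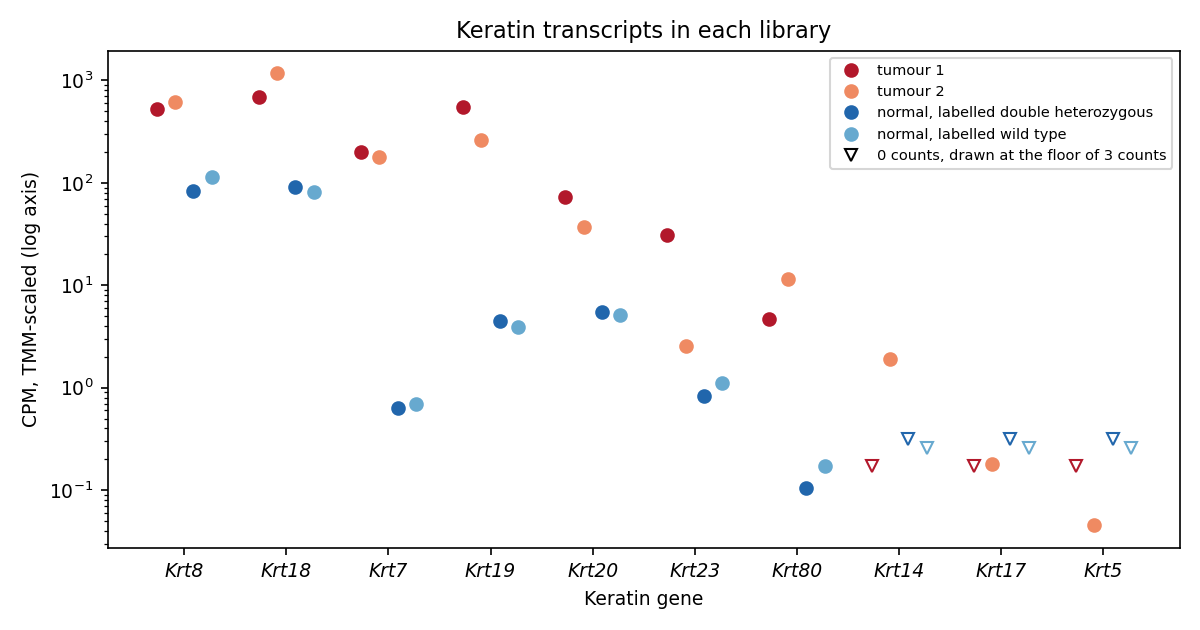
TMM-scaled CPM (log axis) of the 10 keratin genes in tumour 1, tumour 2 and the normal libraries labelled double heterozygous and wild type, 1 point per library; open triangles are counts of 0 drawn at the floor of 3 counts. For the 7 genes at the left the tumour points lie above the normal points, with the widest gap at Krt7 (199 and 178 CPM in the tumours against 0.626 and 0.687 CPM), and Krt14, Krt17 and Krt5 lie at or near the floor apart from Krt14 in tumour 2 (1.91 CPM).

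Keratin 8 and keratin 18 form the filament pair of hepatocytes and of other simple epithelia, and their genes had the highest counts of the 10 members in the normal libraries. Krt18, the type I chain, had 12170 and 25877 counts in tumours 1 and 2, against 880 and 945 in the normal libraries labelled double heterozygous and wild type. That placed it 63rd and 18th among all genes by count in the tumours and 2211th and 2409th in the normal libraries. Krt8, the type II chain, had 9234 and 13599 counts in the tumours, against 797 and 1342 in the normal libraries. The groups did not overlap for either gene. Krt18 averaged 934 ± 340 CPM in the tumours (SD, n = 2) and 86.5 CPM in normal liver, a log2 fold change of 3.47 (SE 0.89) that missed the threshold with edgeR at adjusted p = 0.0974. Krt8 averaged 571 ± 64.4 CPM in the tumours (SD, n = 2) and 99.2 CPM in normal liver, with a log2 fold change of 2.53 (SE 0.72) and an edgeR adjusted p of 0.118. DESeq2 called both higher, at adjusted p = 9.94e-05 for Krt18 and 0.00368 for Krt8. Both share sequence with pseudogenes. Of the 31-mers of Krt8, 36.0% occur in another gene, 32.2% in the pseudogene Krt8-ps, and of those of Krt18 11.4% do, so the counts of both are uncertain. The larger gap between the normal tables fell on Krt8, whose log2 ratio of the table labelled double heterozygous to that labelled wild type was -0.47, against 0.18 for Krt18.

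Keratin 7 (type II) and keratin 19 (type I) are the added keratins of bile duct epithelium. Both of their genes rose in the tumours, and Krt7 was close to absent from normal liver. Krt7 had 3500 and 3925 counts in tumours 1 and 2, against 6 and 8 in the normal libraries labelled double heterozygous and wild type. It averaged 189 ± 15.0 CPM in the tumours (SD, n = 2) and 0.657 CPM in normal liver, 288-fold higher (log2 fold change 8.17, SE 0.86, edgeR adjusted p = 0.0227). Its level was close in both tumours, 199 and 178 CPM. Krt19 had 9641 and 5757 counts in the tumours, against 43 and 46 in the normal libraries. It averaged 405 ± 204 CPM in the tumours (SD, n = 2) and 4.22 CPM in normal liver, 99.2-fold higher (log2 fold change 6.63, SE 1.06, edgeR adjusted p = 0.0434). With tumour 2 as the only tumour the log2 ratio of Krt19 was 5.96, and with tumour 1 it was 7.03, neither with a test. Less than 5% of the 31-mers of either gene occur elsewhere (3.03% for Krt7 and 0.439% for Krt19), so pseudogenes bear less on these counts than on those of Krt8.

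Keratin 20, a type I chain known from gut epithelium and urothelium, was detected in all libraries. Krt20 had 1265 and 809 counts in tumours 1 and 2, against 52 and 60 in the normal libraries labelled double heterozygous and wild type, without overlap. Its level was 72.0 and 36.7 CPM in the tumours and averaged 5.29 CPM in normal liver (log2 fold change 3.39, SE 0.82), and missed the threshold with edgeR at adjusted p = 0.0886. With no filter on low counts the edgeR adjusted p was 0.0342, and with DESeq2 0.00218. None of its 31-mers occur in another gene of the reference.

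Krt23 and Krt80 were lower in abundance and less even between the tumours. Krt23, a type I keratin gene, had 546 and 56 counts in tumours 1 and 2, against 8 and 13 in the normal libraries labelled double heterozygous and wild type. Tumour 1 accounts for most of that difference. The fitted log2 fold change was 4.17 (SE 1.95, edgeR adjusted p = 0.248), and the log2 ratio to normal liver was 4.90 with tumour 1 alone and 1.35 with tumour 2 alone. Krt80, a type II keratin gene whose product is found near desmosomes in differentiating epithelia, had 83 and 252 counts in the tumours, against 1 and 2 in the normal libraries. Here tumour 2 was the higher. The log2 fold change was 5.39 (SE 1.47, edgeR adjusted p = 0.110). The log2 ratio to normal liver was 3.99 with tumour 1 alone and 5.25 with tumour 2 alone. Ratios of a single tumour use a prior count of 2, which draws ratios of low counts towards 0, so they are not on the scale of the fit. DESeq2 called both Krt23 and Krt80 higher (adjusted p = 0.0410 for Krt23 and 0.00931 for Krt80).

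**Figure D2:**
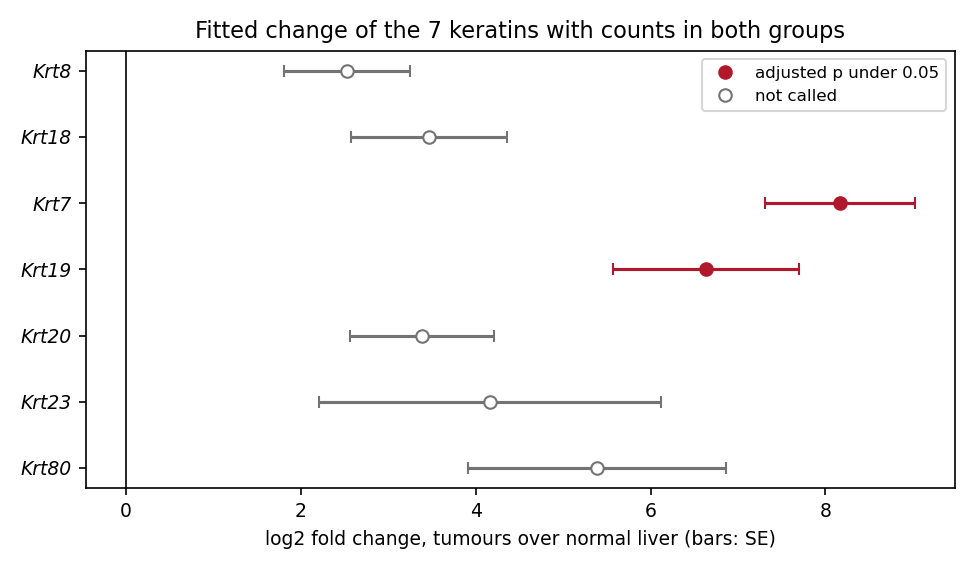
Fitted log2 fold change of the 7 keratin genes with counts in both groups, tumours over normal liver, with bars of 1 SE; filled points passed an edgeR adjusted p of 0.05. Krt7 (8.17) and Krt19 (6.63) passed, and the other 5 were positive and not called, with the widest bar at Krt23 (SE 1.95).

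The keratins of stratified epithelia were at or near 0 counts. Krt14, the type I partner of keratin 5 in basal cells, had 42 counts in tumour 2 (exact 95% Poisson interval 30.3 to 56.8) and 0 in tumour 1 and in both normal libraries. In tumour 2 its 1.91 CPM was at least 6.68-fold above the mean floor of the normal libraries, 3 counts or 0.285 CPM. Tumour 1 was at 0, and the gene did not pass (edgeR adjusted p = 0.415). Krt17, a keratin of skin appendages and wounded skin, had 4 counts in tumour 2, and Krt5, the basal type II chain, had 1. Both were at 0 in tumour 1 and in both normal libraries and were too low to be tested. The floor of 3 counts is 0.171 CPM in tumour 1, and intervals and floors cover counting error only. Of the 31-mers of Krt14, 28.2% occur in other genes, mainly Krt16 (17.6%) and Krt17 (10.5%), as do 15.8% for each of Krt5 and Krt17, so reads of these genes may have been split or dropped. Among the other 41 keratin genes, 21 had 0 counts in all 4 libraries and 3 reached 10 counts in any library. These were Krt10, with 13 and 30 counts in tumours 1 and 2 against 9 and 8 in the normal libraries, Krt13, with 0 and 14 against 0 and 0, and Krt16, with 1 and 11 against 0 and 0. Only Krt10, a keratin of suprabasal skin, was tested (edgeR adjusted p = 0.863). With 1 gene tested, 0 of the 41 were called by edgeR or DESeq2, and 0 had an unadjusted p under 0.05.

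The make-up of the keratin pool differed as well as its size. Levels were compared between genes as CPM per kilobase of coding length, and as shares of the summed type I or type II members. Among type II members, Krt7 made up 28.7% and 23.3% in tumours 1 and 2, against 0.7996% and 0.6341% in the normal libraries labelled double heterozygous and wild type, where Krt8 was 99.1% and 99.2%. Among type I members, Krt19 made up 42.0% and 18.4% in the tumours, against 4.59% and 4.53% in the normal libraries. Krt18 was the leading type I chain in every library, at 50.5% and 78.9% in the tumours and 89.4% and 88.7% in the normal libraries. Krt8 and Krt18 together made up 56.9% and 77.7% of all 10 members in the tumours, against 93.4% and 94.2% in the normal libraries, although the level of each was higher in the tumours. Krt20 made up 5.16% and 2.42% of the type I members in the tumours and 5.19% and 5.53% in the normal libraries, lowest in tumour 2. The ratio of summed type I to type II members was 2.13 and 2.10 in the tumours, against 1.42 and 0.912 in the normal libraries. These are descriptions of single libraries with no test. Over transcript length, which is long for Krt7, the Krt7 share of type II members was 15.27% and 12.004% in the tumours, against 0.358% and 0.284% in the normal libraries, and Krt8, with its shared sequence, weighs on every type II share.

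**Figure D3:**
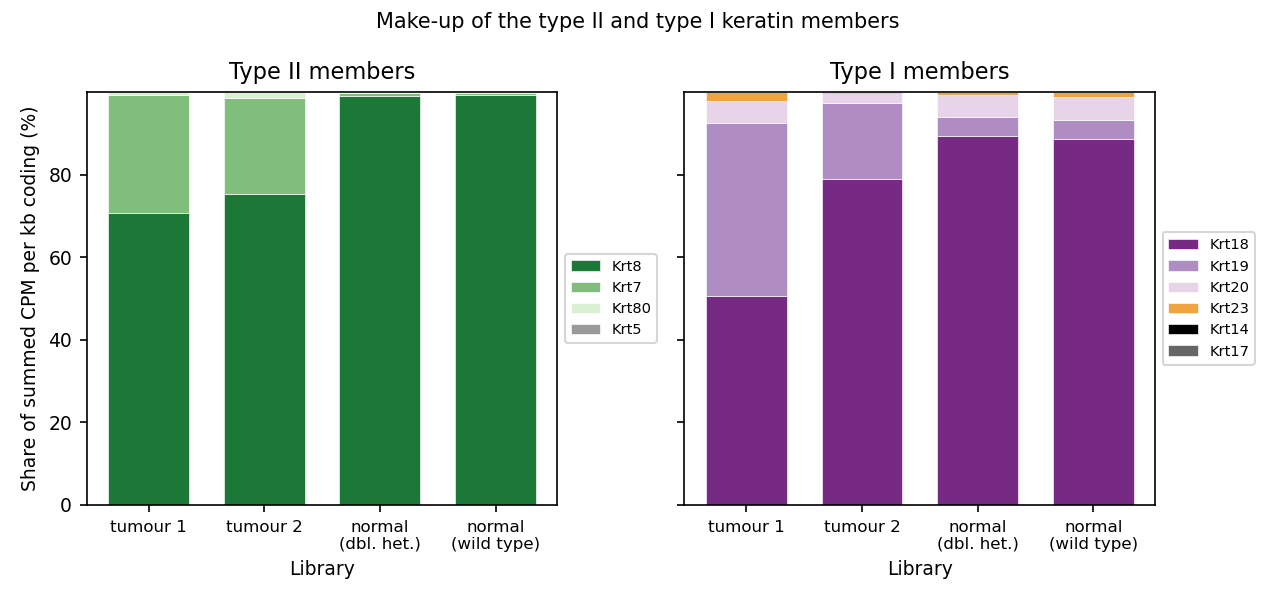
Share (%) of each gene in the summed CPM per kilobase of coding length of the type II members (left) and type I members (right), 1 bar per library, tumours left of the normal libraries. Krt8 and Krt18 nearly fill the normal bars, Krt7 takes 28.7% and 23.3% of the type II bars of tumours 1 and 2, and Krt19 takes 42.0% and 18.4% of their type I bars.

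The tumours differed from each other in which keratins stood high. Krt23, Krt19 and Krt20 were higher in tumour 1, 11.7-fold, 2.10-fold and 1.96-fold by TMM-scaled CPM. Krt18, Krt8 and Krt80 were higher in tumour 2, with log2 ratios of tumour 1 to tumour 2 of -0.76, -0.23 and -1.25, and Krt14 had 0 counts in tumour 1 against 42 in tumour 2. Krt7 lay closest, at a log2 ratio of 0.16. These ratios compare 1 library with 1 and have no replicate check. Over 2-fold were 3 of the 7 members with at least 10 CPM in either tumour, where 27.4% of all 9184 such genes were (11.9% higher in tumour 1 and 15.5% higher in tumour 2). Markers of other cell types differed between the tumours in the same comparison. The 10 gut epithelium markers summed to 815 CPM in tumour 1 and 86.9 CPM in tumour 2 (Cdx2 at 1814 and 3 counts, Cdh17 at 5935 and 986, Lgals4 at 3755 and 111, whereas Lgr5 at 13 and 259 and Tff3 at 1 and 105 were higher in tumour 2), and the 8 fibroblast markers summed to 3.82 CPM in tumour 1 and 617 CPM in tumour 2 (Col1a2 at 1 and 5230 counts). Their part in the keratin differences was not tested. In the normal libraries 0 of the 2 members with at least 10 CPM, Krt8 and Krt18, differed over 2-fold, where 4.45% of all 8322 such genes did (0.973% higher and 3.47% lower in the double heterozygous library), and the tables share counts.

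**Figure D4:**
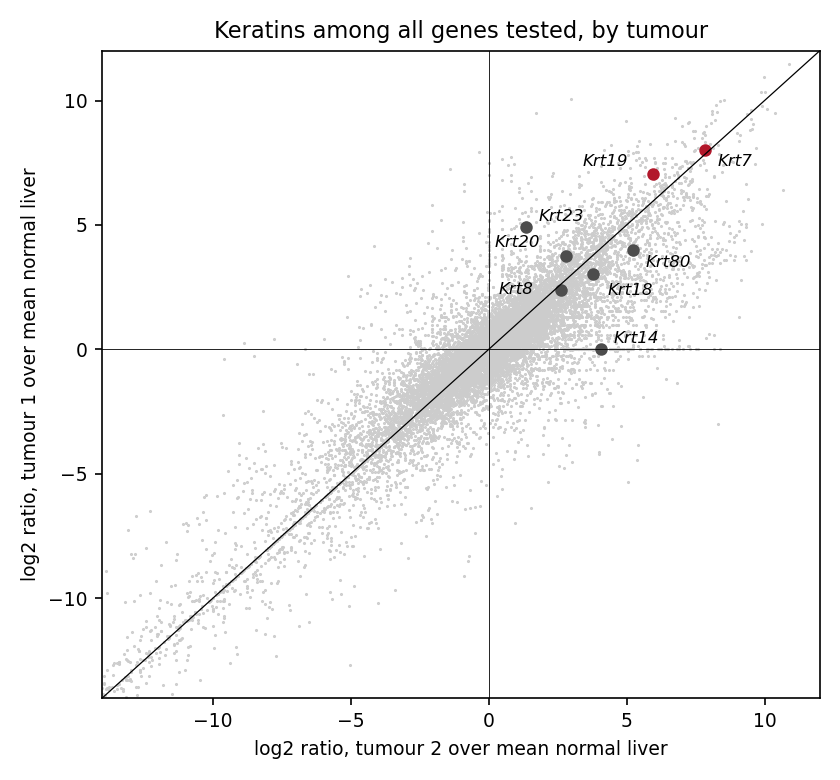
Log2 ratio to the mean normal library in tumour 2 (x axis) and tumour 1 (y axis) for the 14468 genes tested (grey, those beyond the axes not drawn) and the 8 keratins tested, with Krt7 and Krt19, which passed the test, in red and the line of equal ratio drawn. Krt7 lies near the line, Krt23 and Krt19 above it, and Krt80, Krt18 and Krt14 below it, Krt14 at a ratio of 0 in tumour 1.

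Genes that anchor keratin filaments were set beside the members, from lists chosen with earlier results of these data known. Genes named from these and the marker lists that did not pass were picked after their values were seen. Among hemidesmosome genes Itgb4 rose. Itgb4, the integrin beta4 chain that binds plectin and thereby the keratins, had 547 and 768 counts in tumours 1 and 2, against 9 and 9 in the normal libraries (log2 fold change 5.29, SE 0.81, edgeR adjusted p = 0.0397). Of the laminin chain genes, Lamb3 had 3181 and 3126 counts in the tumours, against 122 and 141 in the normal libraries (adjusted p = 0.0532), and Lama3 had 6 and 40 against 218 and 278 (adjusted p = 0.109). Neither passed, and they lay on opposite sides of normal liver. Itga6, the partner of Itgb4, had 1229 and 3248 counts in the tumours, against 63 and 75 in the normal libraries (adjusted p = 0.0709).

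Desmosome genes lay to both sides of 0. Of 18 desmosome and cornified envelope linker genes 12 were tested, 0 rose and 1 fell, with a median log2 fold change of -0.27. Dsp, the desmoplakin gene that ties keratins to the desmosome, had 6169 and 8349 counts in tumours 1 and 2, against 2723 and 2818 in the normal libraries (log2 fold change 0.51, SE 0.62, edgeR adjusted p = 0.624). The gene that fell was the desmosomal cadherin gene Dsg1c, with 0 counts in both tumours against 216 and 275 in the normal libraries, at least 150-fold lower (edgeR adjusted p = 0.0410), and 39.4% of its 31-mers occur in other genes. With library totals only its adjusted p was 0.0610, and the call was lost. Of the linkers, the periplakin gene Ppl had 3554 and 2871 counts against 225 and 246 (adjusted p = 0.0863). DESeq2 called 3 genes higher and 2 lower, and 4 were higher and 2 lower at an unadjusted p under 0.05. Of 9 genes of other keratin filament partners, 0 were called in either direction by edgeR or by DESeq2, and 1 was higher and 1 lower at an unadjusted p under 0.05. The list median was 0.52.

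Other intermediate filament genes were uneven between the tumours. Of 14 such genes 9 were tested and edgeR called 0, with 2 higher at an unadjusted p under 0.05 and 4 called higher by DESeq2. The list median was 3.69. Vim, the vimentin gene of mesenchymal cells, had 7417 and 43694 counts in tumours 1 and 2, against 88 and 91 in the normal libraries (log2 fold change 7.17, SE 1.66, edgeR adjusted p = 0.0824). Nes, a filament gene of progenitor cells, had 41 and 8941 counts in the tumours, against 16 and 17 in the normal libraries. Both genes were higher in tumour 2 than in tumour 1, with Vim at 422 CPM in tumour 1 and 1983 CPM in tumour 2.

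Among 18 genes of epithelial transcription factors 10 were tested, 1 rose and 0 fell, with a list median of 3.76 (2.94 where a gene with a group at 0 counts at its bound). Ehf, an ETS family factor of epithelial cells, had 7683 and 3262 counts in tumours 1 and 2, against 5 and 4 in the normal libraries (log2 fold change 9.60, SE 1.45, edgeR adjusted p = 0.0388). Klf4, a factor of differentiating epithelia, had 797 and 1101 counts in the tumours, against 33 and 37 in the normal libraries (adjusted p = 0.0527). Trp63, the p63 gene that marks basal cells of stratified epithelia, had 0 and 7 counts in the tumours and 0 in both normal libraries, low like Krt5 and Krt14. Grhl2 had 1 and 2 counts in the tumours and 4 and 4 in the normal libraries. DESeq2 called 5 genes higher and 1 lower, and 4 were higher and 1 lower at an unadjusted p under 0.05.

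**Figure D5:**
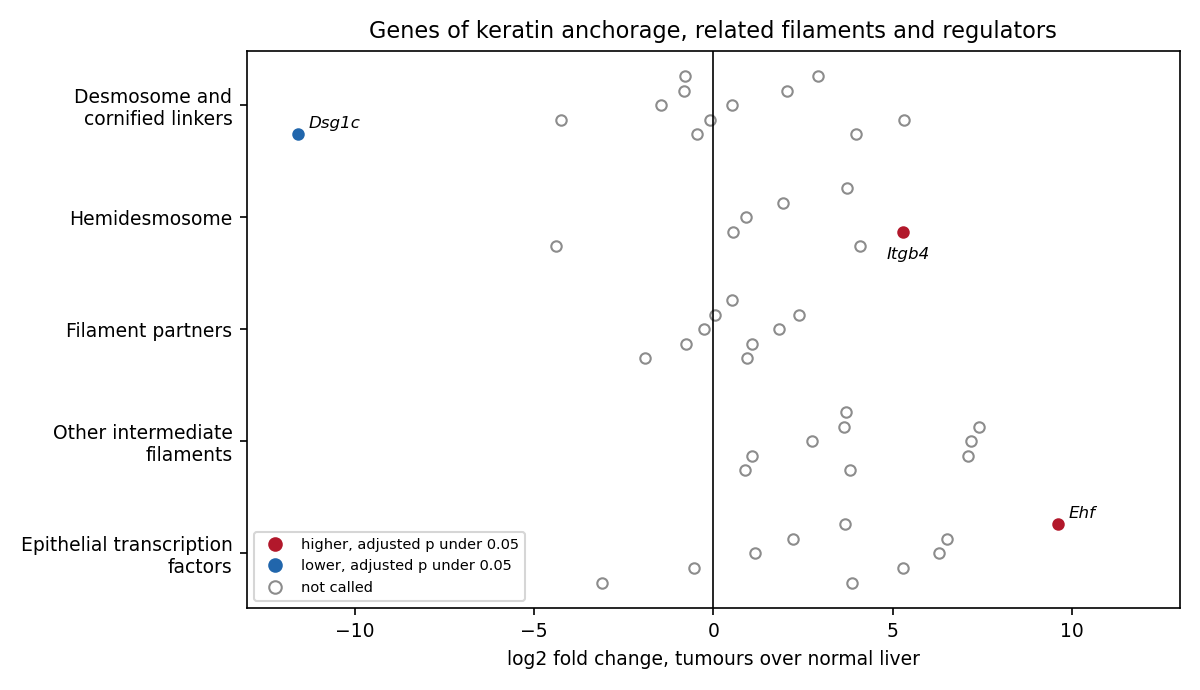
Fitted log2 fold change, tumours over normal liver, of tested genes of 5 lists, 1 point per gene with a vertical offset for legibility only; filled points passed an edgeR adjusted p of 0.05, and values of genes at 0 in a group depend on the prior count. Itgb4 (5.29) and Ehf (9.60) were called higher and Dsg1c lower, and the desmosome list is spread to both sides of 0.

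Markers of cell types that carry these keratins were read in the same libraries. Of 12 bile duct markers 2 rose and 0 fell, Spp1 and Tspan8, and the list summed to 1899 and 1671 CPM in tumours 1 and 2, against 216 and 193 CPM in the normal libraries labelled double heterozygous and wild type. Spp1 supplied most of the tumour sum, at 1290 and 1340 CPM, and 14.3% of its 31-mers occur in other genes, so its count is uncertain. With the double heterozygous normal table alone the call of Tspan8 was lost (adjusted p = 0.0510). Epcam, a defining duct marker, had 356 and 4 counts in the tumours and 46 and 48 in the normal libraries. Of 8 mesothelium markers, a lining that also makes keratins 7, 8, 18 and 19, 2 rose and 0 fell, and the list summed to 524 and 177 CPM in the tumours, against 2.19 and 2.06 CPM. Msln, the mesothelin gene, supplied most of the tumour sums, at 499 and 163 CPM. It had 8766 and 3601 counts in the tumours, against 3 and 5 (log2 fold change 9.78, SE 1.49, edgeR adjusted p = 0.0396). By contrast, Wt1 had 17 and 51 against 1 and 1, and Muc16 0 and 1 against 0 and 0. Gpm6a had 2 and 16 against 10 and 11, and Lrrn4 had 4 and 0 against 3 and 3. Of 12 suprabasal keratinocyte markers 1 rose, Sprr1a, with 475 and 854 counts in the tumours against 0 and 0 and at least 115-fold higher (adjusted p = 0.0262). Krt1, Krt2 and Flg were at 0 in all libraries. Sbsn had 59 and 241 counts in the tumours against 0 and 0 (edgeR adjusted p = 0.0884). Ivl had 37 and 2 against 0 and 0 (edgeR adjusted p = 0.329), and neither passed. That list summed to 33.4 and 52.7 CPM in the tumours and 20.4 and 20.0 CPM in the normal libraries. Tgm1, a transglutaminase gene, supplied most of the normal sums, with 2 and 16 counts in the tumours against 186 and 225 (adjusted p = 0.0870). At an unadjusted p under 0.05, 2 genes of that list were higher and 1 lower, and DESeq2 called as many.

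Markers of other cells were read the same way. Of 7 urothelium markers 1 rose, Upk1b, which the mesothelium list also holds, with 234 and 203 counts in tumours 1 and 2 against 0 and 0 (at least 39.5-fold higher, edgeR adjusted p = 0.0462), while Upk2 and Upk3a were at 0 throughout. That list summed to 16.3 and 14.8 CPM in the tumours and 44.9 and 42.1 CPM in the normal libraries, of which its member Ppargc1b, not specific to urothelium, made up 44.7 and 41.8 CPM. Of 10 gut epithelium markers 0 were called by edgeR (1 higher and 2 lower at an unadjusted p under 0.05, and 2 higher and 2 lower by DESeq2), and the sums in the normal libraries were 295 and 270 CPM. Of 8 fibroblast markers 0 were called (0 higher and 2 lower at an unadjusted p under 0.05, and 1 higher and 2 lower by DESeq2), with 96.5 and 85.1 CPM in the normal libraries. Endothelial markers summed to 0.456 and 1.13 CPM in the tumours against 237 and 223 CPM (3 of 7 fell), macrophage markers to 16.4 and 4.04 CPM against 145 and 131 CPM (2 of 7 fell), and pancreatic acinar markers to 0 and 0.817 CPM against 158 and 142 CPM (4 of 9 fell). With library totals only, 1 gene of each of these 3 lists was called lower, and by DESeq2 7 endothelial, 4 macrophage and 6 acinar genes were. The part of any of these cell types in the keratin levels was not tested.

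The genes whose pattern lay nearest to Krt19, Krt8 and Krt80 were found by the distance between log2 CPM values in tumour 1, tumour 2 and the mean normal library, centred on each gene's mean, with a prior count of 2 that draws low genes together. Over these 3 libraries, nearest to Krt19 were the hexokinase gene Hk2 (distance 0.0759 on the log2 scale), 6530418L21Rik (0.148) and Parp8 (0.181). Nearest to Krt8 were S100a13 (0.0301), Srp54a (0.0328) and the growth factor gene Pdgfc (0.0441), and nearest to Krt80 were 6330406I15Rik (0.0391), the matricellular protein gene Nov (0.0688) and Ifi204 (0.0884). Of the 31-mers of Srp54a 72.5% occur in other genes, of 6330406I15Rik 37.4% and of Ifi204 34.6%. With 3 libraries such nearness is a description only.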

How the data were processed

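The authors deposited raw read counts per gene symbol, 1 table per library, with no normalization. The submitters' processing notes name mm9 as the build and, with no role or order, the tools TopHat2 2.0.10, HTSeq, FastQC, Trimmomatic and DESeq2. Per the labels' protocols, libraries came from TRIZOL-extracted RNA by a TruSeq kit. The sources used here do not give settings, annotation or use of strand. Library sizes and tests leave out the 5 lines per table that name no gene, which held 58.8% to 76.0% of everything tallied (not unique, 30.7% to 51.5%).

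Counts were tested in R 4.3.3 with edgeR 4.0.16 (TMM scaling, filterByExpr at its minimum of 10 counts, glmQLFit, glmQLFTest, threshold 0.05 after Benjamini-Hochberg adjustment) over 14468 genes: 2 tumours against the rounded mean of the normal tables. This takes the spread of the tumours for that of normal liver. The SE of a log2 fold change is its absolute value over the square root of F. CPM were scaled by TMM over all 4 libraries, and ratios of 1 library to 1 used a prior count of 2. A count of 0 was read as a floor of 3 counts per library, and the mean floor of a group's libraries was used for bounds. DESeq2 1.42.0, other scalings, no filter and other uses of the normal tables were alternatives. The fit was tested on simulated data. There it called 26% of 100 genes changed by 3 on the log2 scale and 97% of 100 genes changed by 7. A gene that was not called may therefore still have changed.

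Coding lengths, transcript lengths and the share of 31-mers found in another gene came from GENCODE M21 transcripts (GRCm38), for which all 219 symbols looked up were matched, older symbols through RefSeq synonyms. That build is not mm9, so it served for sequence and length only, and counts of genes above 10% were taken as uncertain.

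The members and lists were chosen with earlier results of these data known. Named were the 10 members, other keratins with at least 10 counts in any library and the 3 genes nearest to Krt19, Krt8 and Krt80 in pattern. Genes that passed in a list were named too, up to 4 by size of change, with exceptions. Those of the endothelial, macrophage and acinar lists were left unnamed. Of the hepatocyte genes that passed, only Ass1 and Serpina1c were named, for their uncertain counts. The hemidesmosome list is given by some of its genes, and its other results are not reported here.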

Additional observations from a re-analysis of the deposited data

How the results depend on the processing

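Of the 10 keratin members, 2 were called higher under RLE scaling, upper quartile scaling, library totals only and with either normal table alone, 3 with no filter on low counts (Krt20 added), 6 with both normal tables as separate libraries and 7 with DESeq2. The cause of the higher counts was not tested. No setting called a member lower, and no setting called any of the other 41 keratin genes. The background moved too: separate normal tables, which share counts, called 22.6% of all genes higher, DESeq2 12.2% and the fit with no filter 4.88%. The fitted fold changes of Krt7, Krt8, Krt18, Krt19, Krt20, Krt23 and Krt80 were positive in each of these 8 settings, and the calls of Krt7 and Krt19 held in each of these 8 settings, with adjusted p for Krt19 of up to 0.0466 by edgeR. The median gene lay at 0.12 on the log2 scale with RLE, 0.42 with upper quartile and 1.56 with library totals only, against 0.19 with TMM, and fold changes shift with it. Leaving out a tumour leaves no residual degree of freedom, so values without a test were computed: the log2 ratio of Krt7 was 7.86 without tumour 1 and 8.02 without tumour 2. Both lie under the fitted 8.17. Such ratios use a prior count of 2, which draws ratios of low counts towards 0, so they are not on the scale of the fit. No paired analysis was possible because the labels do not link any tumour to a normal library of the same animal. Counts of the desmosome, filament, transcription factor and marker lists under these settings were added after the data were seen. Depth limits Krt5 and Krt17, which were at or near the floor of 3 counts, and for Krt14 tumour 1 and the normal libraries were at 0.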
